A study of Mus musculus with 4 samples.

Results

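B cells of the glyoxylate-treated mouse kidney were followed here as 612 cell barcodes, out of 56471 barcodes that passed the limits on depth and mitochondrial RNA and 60670 barcodes in the deposited cell lists. The barcodes were picked by transcripts of the B cell antigen receptor chains CD79A and CD79B (Cd79a, Cd79b) and of the surface protein CD20 (Ms4a1). A barcode had to hold at least 500 unique molecular identifiers (UMIs, each standing for 1 captured RNA molecule) and at most 50% mitochondrial UMIs. It also needed at least 2 UMIs of these 3 genes together with at least 1 of Cd79a or Ms4a1, 0 UMIs of the T cell genes Cd3d, Cd3e and Cd3g, and at most 1 UMI of the macrophage genes C1qa, C1qb and C1qc. The levels of these genes are therefore set by the choice and are given only as a description. Barcodes just inside the limit, with 2 UMIs of the 3 genes, numbered 9, 7, 11 and 7 at D0, D1, D4 and D7. They held a median of 8, 1, 9 and 10 UMIs of Cd74, an antigen presentation gene that the choice did not use. Barcodes just outside it, with 1 such UMI, numbered 55, 79, 46 and 35, and their median Cd74 count was 0 on each day. A further 7, 20, 14 and 13 barcodes held 2 or more UMIs of the 3 genes and were left out by the other limits. Their median Cd74 counts were 27, 31.5, 9 and 13 UMIs. Of these barcodes 5, 8, 2 and 5 held more than 1 C1q UMI, and 1, 7, 8 and 7 held a Cd3 UMI. Cd74 was also found outside B cell barcodes, so its level does not tell which of those left out were B cells.

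The study asked how kidney cells respond to glyoxylate, a precursor of oxalate that loads the kidney with crystals of calcium oxalate. The animals were male C57BL/6 mice, 6-8 weeks old, given glyoxylate into the peritoneum on 1, 4 or 7 consecutive days (D1, D4 and D7) or on 0 days (D0). Their kidneys were digested with trypsin and DNase and run as droplet 3' single-cell libraries, 1 library per day. The number of mice behind a library is not given in the sources used here, no B cell enrichment is described, and with 1 library per day a day and its library cannot be told apart, so no test between animals was possible. Intervals given with ratios and shares are 95% intervals and cover counting error alone.

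B cells carry an antibody on their surface as the antigen receptor, with CD79A and CD79B as its signalling chains. Resting follicular B cells recirculate through blood and lymphoid tissue under the control of the transcription factor KLF2 and the chemokine receptor CCR7, hold MHC class II for presenting antigen to T cells, and depend on the factors EBF1 and PAX5. On activation some become antibody-secreting cells, which switch these genes off and switch on XBP1, the secretory machinery of the endoplasmic reticulum and the joining chain of IgM and IgA (Jchain). The healthy kidney holds few B cells.

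Promoter sequence is shown for 4 genes named in the results. They are a gene that picked the barcodes, the gene that marks the antibody-secreting programme, and a pair of endoplasmic reticulum genes. Over all barcodes this pair was higher at D7 than at D0, but neither was past 2-fold among barcodes with at least 3000 UMIs. Each stretch is the RefSeq promoter of the GRCm38.p6 assembly, from 250 bases before the gene start to 50 after it, read 5′ to 3′ along the gene. Capitals mark matches to the 4 motifs searched, which were chosen with these sequences known. The motifs are CNNGGGAAT, which is part of the site that EBF1 binds, the E-box CAGGTG, the octamer ATGCAAAT, and the endoplasmic reticulum stress response element, which is CCAAT and CCACG with 9 bases between them, each searched on both strands.
Cd79a, chr7:24897247-24897546, plus strand: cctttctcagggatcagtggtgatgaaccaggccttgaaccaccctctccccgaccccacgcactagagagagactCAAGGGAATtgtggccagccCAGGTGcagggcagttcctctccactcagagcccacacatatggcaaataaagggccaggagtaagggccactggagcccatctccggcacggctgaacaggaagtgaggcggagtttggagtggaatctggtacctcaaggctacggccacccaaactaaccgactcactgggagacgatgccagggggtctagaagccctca
Jchain, chr5:88527848-88528147, minus strand: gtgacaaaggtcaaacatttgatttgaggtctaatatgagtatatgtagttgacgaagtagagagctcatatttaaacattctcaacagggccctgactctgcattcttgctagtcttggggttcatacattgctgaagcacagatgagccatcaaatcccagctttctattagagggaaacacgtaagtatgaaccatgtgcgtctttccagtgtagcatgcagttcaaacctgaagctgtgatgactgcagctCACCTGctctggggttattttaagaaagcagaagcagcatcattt
Creld2, chr15:88819396-88819695, plus strand: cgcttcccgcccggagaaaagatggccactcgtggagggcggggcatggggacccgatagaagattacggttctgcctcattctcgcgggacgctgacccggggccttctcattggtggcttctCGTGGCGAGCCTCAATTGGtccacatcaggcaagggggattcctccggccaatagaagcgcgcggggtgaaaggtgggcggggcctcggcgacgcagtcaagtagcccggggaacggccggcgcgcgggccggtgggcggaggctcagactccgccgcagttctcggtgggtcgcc
Hspa5, chr2:34771840-34772139, plus strand: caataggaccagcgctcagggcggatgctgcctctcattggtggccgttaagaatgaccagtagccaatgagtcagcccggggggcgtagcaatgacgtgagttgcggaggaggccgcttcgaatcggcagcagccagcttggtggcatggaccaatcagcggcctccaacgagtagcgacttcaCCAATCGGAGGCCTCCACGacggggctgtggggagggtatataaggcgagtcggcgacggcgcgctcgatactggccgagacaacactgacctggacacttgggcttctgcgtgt
In Cd79a the capitals are the EBF1 letters at bases 77 to 85 and an E-box at bases 97 to 102 of the stretch. In Jchain they are an E-box on the other strand (CACCTG) at bases 256 to 261. Creld2, which encodes a chaperone of the endoplasmic reticulum, holds the stress element on the other strand at bases 125 to 143. Hspa5, which encodes the chaperone BiP, holds it at bases 186 to 204. Of 32851 promoters of the same length, 3.3% hold CNNGGGAAT, 20.2% hold the E-box, 1.74% hold the octamer, which is not in these 4 stretches, and 0.119% hold the stress element. Among the antibody-secreting genes listed below, 9 of 11 had a promoter in the table, 4 of these held the E-box and 2 (Derl3 and Creld2) held the stress element, while among 9 of 12 heat shock chaperones 1 (Hspa5) held it. These matches describe the letters and show no binding.

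The 4 libraries held 85009491 to 99337001 UMIs. The deposited cell lists of D0 and D1 began at 500 UMIs per barcode, but those of D4 and D7 began at 2919 and 2773, so that shallow barcodes could be seen in the first pair of libraries only. Because B cells hold little RNA, this difference touches them directly. The median B cell barcode held 1798 UMIs at D0, 2319.5 at D1, 5066 at D4 and 5388 at D7, and 146 barcodes of D0 (70.9%) and 171 of D1 (68.4%) were shallower than any barcode in the D7 list. Comparisons that cross these pairs are therefore set beside values from barcodes with at least 3000 UMIs, a common floor, for the lists and for most of the genes named. No B cell barcode sequence occurred in more than 1 library, although the cell lists of each pair of libraries shared 50 to 81 barcode sequences.

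B cell barcodes made up 1.42% of passing barcodes at D0 (206 of 14485, exact binomial interval 1.24 to 1.63%), 2.19% at D1 (250 of 11428, 1.93 to 2.47%), 0.584% at D4 (94 of 16103, 0.472 to 0.714%) and 0.429% at D7 (62 of 14455, 0.329 to 0.550%). At the common floor the shares were 0.568% at D0 (56 barcodes, 0.430 to 0.737%), 0.845% at D1 (63 barcodes, 0.650 to 1.08%), 0.592% at D4 (93 barcodes, 0.478 to 0.724%) and 0.431% at D7 (59 barcodes, 0.328 to 0.556%). Over all barcodes the D4 and D7 shares lay below those of D0 and D1 with no overlap of the intervals. At the floor the intervals of D0, D4 and D7 overlapped one another, and that of D1 overlapped those of D0 and D4 but not that of D7. T cell barcodes, picked in the same way by Cd3 genes, numbered 272, 460, 186 and 151.

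**Figure D1:**
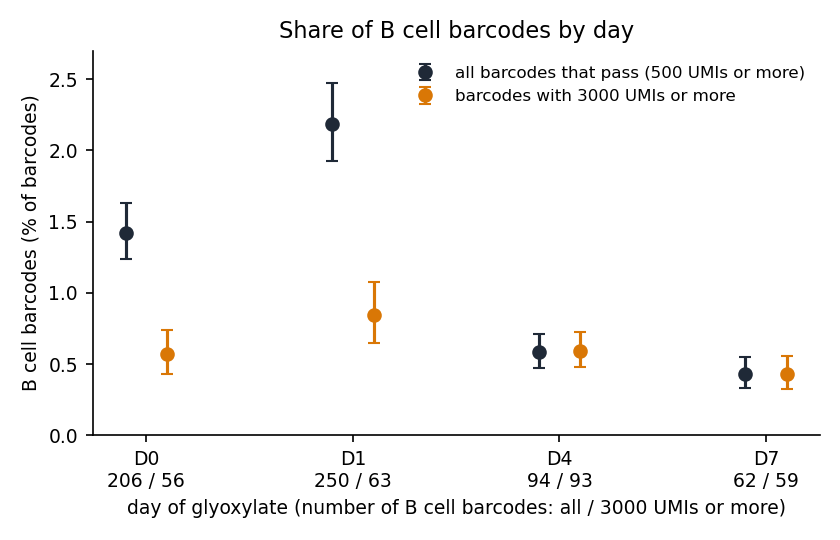
Share of B cell barcodes among passing barcodes (y axis, percent) in each library (x axis, day of glyoxylate). Dark points are all passing barcodes and orange points those with at least 3000 UMIs, with exact 95% binomial intervals for counting error. The dark point of D1 stands highest at 2.19%, while the orange points lie between 0.431 and 0.845%.

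The barcodes held RNA of proximal tubule cells, the most abundant cells of these libraries, in amounts that differed by day. Slc34a1, the main phosphate transporter of the proximal tubule, stood at 49.9, 55.2, 83.8 and 61.3% of its level in the rest of the library at D0, D1, D4 and D7. Lrp2 (megalin, the endocytic receptor of the brush border) stood at 60.7, 51.7, 89.0 and 62.6%, and the median over 17 proximal tubule markers was 54.9, 47.7, 86.1 and 64.3%. These sums hide a split between barcodes. The median barcode at D0 and D1 had only 0.12 and 0.131 times the marker share of the rest of its library, while at D4 and D7 it had 0.803 and 0.656 times. In T cell barcodes the medians were 0.0842, 0.0871, 0.602 and 0.612, so the same pattern by day was present there. With at least 3000 UMIs the B cell medians were 0.770, 0.375, 0.794 and 0.684. The 105 barcodes at D0 and 128 at D1 with no UMI of Slc34a1 or Lrp2 had only 6 counterparts at each of D4 and D7. Free RNA in a droplet and a droplet that holds both cells cannot be told apart from these values.

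Because of this split the barcodes were described in 3 kinds, chosen after their values were seen. Jchain-high barcodes held at least 20 Jchain UMIs. The others were called proximal tubule-low where their marker share was at most 0.2 of the median of the rest of their library, and proximal tubule-high above it. Proximal tubule-low barcodes numbered 145, 158, 2 and 9 at D0, D1, D4 and D7, and proximal tubule-high ones 58, 84, 84 and 43. The cut lies in a continuous range: over all kinds, 70, 81, 0 and 7 barcodes had 0.1 to 0.2 times the marker share of the rest and 19, 41, 12 and 4 had 0.2 to 0.5 times. Median depths were 1621 and 2193 UMIs in the proximal tubule-low barcodes of D0 and D1, against 4691 and 2711 in the proximal tubule-high ones, and the shallowest barcode of each day, with 568 and 541 UMIs, was proximal tubule-high. At D4 and D7, whose lists lack shallow barcodes, the proximal tubule-high kind made up 89.4 and 69.4% of B cell barcodes, against 28.2% at D0. At the common floor 44, 35, 83 and 41 barcodes were proximal tubule-high at D0, D1, D4 and D7, and 9, 22, 2 and 9 proximal tubule-low. The floor thus changed the kinds of D0 barcode compared as well as their depth, and the 2 cannot be told apart in values at the floor.

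**Figure D2:**
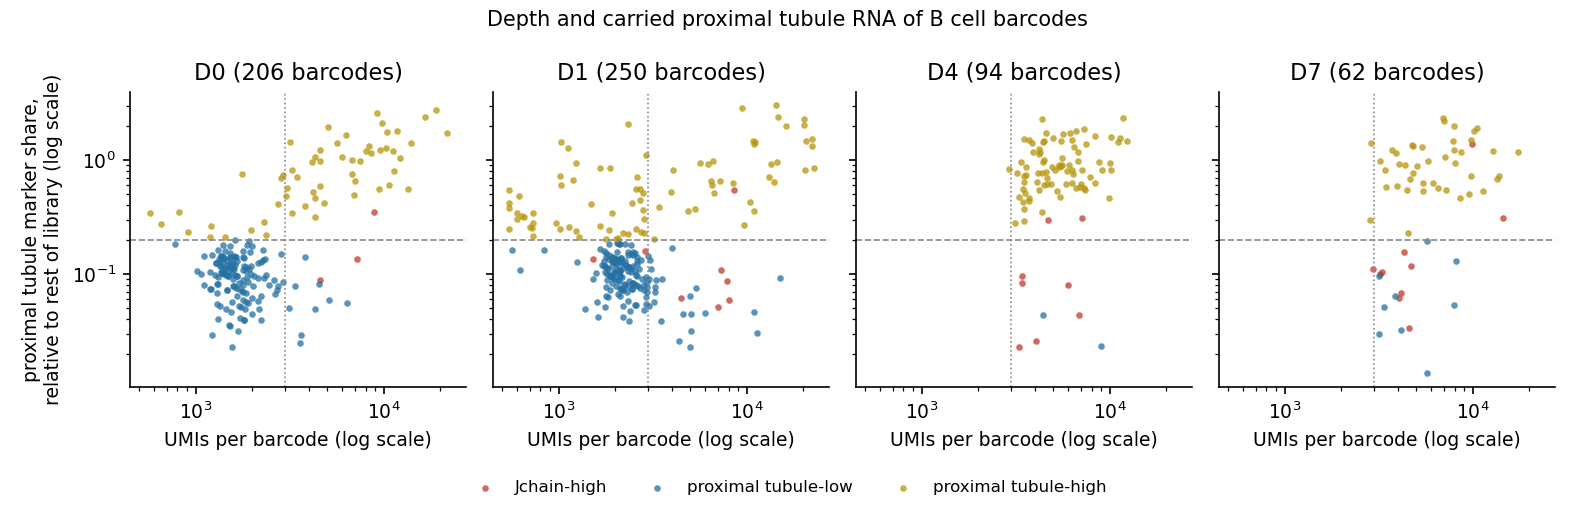
Each point is 1 B cell barcode, with its depth (x axis, UMIs, log scale) and its share of proximal tubule marker UMIs relative to the median of the rest of the library (y axis, log scale, values under 0.01 drawn at 0.01), 1 panel per day, coloured by kind. The dotted line marks 3000 UMIs and the dashed line the limit of 0.2. The dense cloud of proximal tubule-low barcodes at D0 and D1 (145 and 158 barcodes, median depths of 1621 and 2193 UMIs) has 2 and 9 counterparts at D4 and D7.

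The B cell identity was checked on genes that the choice did not use. Cd74, the invariant chain that escorts MHC class II, was at 6480, 7948, 1827 and 2303 CPM (the gene's UMIs scaled to all UMIs of the summed barcodes) in B cell barcodes at D0, D1, D4 and D7, against 235, 502, 194 and 340 CPM in the rest of each library. Ebf1, the factor that sets up the B lineage, was at 885, 970, 269 and 202 CPM against 0.638, 2.32, 1.16 and 1.45 CPM. Pax5, which holds B cell identity, was at 104, 116, 28.2 and 37.5 CPM against at most 0.103 CPM. Cd74 was present in 100, 98.8, 100 and 100% of barcodes. After each barcode was thinned to 1000 UMIs, which left out 5 barcodes at D0 and 18 at D1, Cd74 was found in 96.5, 95.7, 81.9 and 85.5% and Ebf1 in 69.2, 63.4, 22.3 and 16.1% of B cell barcodes, while in the rest at D0, whose median depth was 4933 UMIs, the thinned shares were 4.65 and 0.0980%. Without thinning Ebf1 was found in 89.8, 92.0, 69.2 and 59.7% of B cell barcodes, and Cd74 and Ebf1 in 10.7 and 0.245% of the rest at D0. The label thus held on each day by these genes, at lower levels per UMI at D4 and D7. Cd79a, whose level the choice sets, was at 1638, 2042, 483 and 534 CPM. The constant-region genes of antibodies were not analysed here.

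Markers of other cells differed by day, and for some lists most of the UMIs sat in 1 barcode. Of 16 T and NK cell markers, 14, 7, 7 and 15 were at 0 at D0, D1, D4 and D7, with 2, 25, 13 and 1 UMIs in sum, which was 3.51, 10.46, 47.9 and 5.58% of their level in the rest of the library. Cd3d, Cd3e and Cd3g are among the 16 and were held at 0 by the choice, which thus partly sets these values. The phagocyte markers likewise include C1qa, C1qb and C1qc, held to at most 1 UMI per barcode. Mononuclear phagocyte markers summed to 29, 344, 97 and 30 UMIs, of which 188 of D1 lay in 1 barcode, and neutrophil markers to 0, 373, 4 and 2 UMIs, of which 365 of D1 lay in 1 barcode. The neutrophil sum at D1 was thereby 134.9% of that in the rest. Dendritic cell markers summed to 9, 8, 29 and 0 UMIs, of which 25 of D4 lay in 1 barcode and set the D4 level at 707.9% of the rest. Thick ascending limb and distal tubule markers summed to 38, 28, 18 and 254 UMIs, 152 of the last in 1 barcode. Results that rest on such a barcode are named as such below.

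Expression was compared between days on the summed UMIs of each library, and a gene is called higher or lower past a 2-fold ratio of CPM plus 10, where both libraries together hold 20 or more of its UMIs. At D1 against D0, 6734 genes were tested, 84 (1.25%) were higher and 32 (0.475%) lower. At D4 against D0, 5690 were tested, 124 (2.18%) higher and 360 (6.33%) lower. At D7 against D0, 5332 were tested, 154 (2.89%) higher and 335 (6.28%) lower. The balance of directions depended on the setting: at D4 it was 68 higher and 64 lower with at least 3000 UMIs, 1646 and 73 when counted per barcode, 752 and 539 with the highest Scrublet (doublet) scores removed, and 790 and 656 with equal weight of barcodes. At D7 52.4% of the 212 genes called with at least 3000 UMIs were higher, and the other settings gave 2290 higher and 51 lower, 682 and 477, and 607 and 577. D7 and D4, whose cell lists begin at a similar depth, differed in fewer genes, with 78 (1.64%) higher and 71 (1.49%) lower at D7 of 4770 tested. D1, D4 and D7 share the D0 library as their base, so these comparisons are not independent of each other.

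Antigen presentation genes show what the common floor does to these decreases. Over all barcodes, 11 of 11 tested MHC class II genes were lower at D7 than at D0, with a median log2 ratio of -1.49 beside 0.02 for all genes, of which 6.28% were lower. At D4 10 of 11 were lower, with a median of -1.78 beside 0.01 for all genes, of which 6.33% were lower. With at least 3000 UMIs, 0 of 9 were called at D7 (median -0.29) and 0 of 10 at D4 (median -0.46). Of the D0 barcodes, 44 of 56 were proximal tubule-high at this floor, against 58 of 206 over all barcodes. H2-Aa, a chain of the MHC class II molecule itself, was at 1708, 1900, 468 and 537 CPM at D0, D1, D4 and D7, so D7 stood at 0.314 times D0 (0.270 to 0.364). At the floor it had 206 UMIs at D7 and 231 at D0, a ratio of 0.921 (0.760 to 1.12). Cd74 at D7 was 0.355 times D0 (0.331 to 0.382) over all barcodes and 0.872 times (0.798 to 0.954) at the floor. Counted per barcode, where the median gene lay 0.90 higher in log2 at D7, the MHC class II median was -0.64 and none of the 11 was called. Within proximal tubule-high barcodes alone, Cd74 was 0.743 times D0 at D7 (0.671 to 0.823) and H2-Aa 0.841 times (0.690 to 1.02), neither past 2-fold.

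Cd74 and H2-Aa differed by kind of barcode. Cd74 stood at 12108, 12998 and 4043 CPM in proximal tubule-low barcodes at D0, D1 and D7, and at 2729, 4202, 1698 and 2028 CPM in proximal tubule-high barcodes at D0, D1, D4 and D7. H2-Aa stood at 3250, 3086 and 795 CPM and at 695, 1080, 483 and 585 CPM in the same order. Per UMI, the proximal tubule-low barcodes of D0 and D1 were thus several times above the proximal tubule-high ones for both genes. Per barcode the kinds lay closer: Cd74 averaged 22.2 and 33.4 UMIs in proximal tubule-low barcodes at D0 and D1, against 17.4 and 23.9 in proximal tubule-high ones, and H2-Aa 5.96 and 7.94 against 4.43 and 6.14. Of the D0 barcodes 145 of 206 were proximal tubule-low, but of the D7 barcodes 9 of 62. The mean barcode held 20.7, 29.6, 10.4 and 14.9 Cd74 UMIs, so the number per droplet was also lowest at D4 and D7, although those droplets held more RNA in all. How much of the difference lies in the cells and how much in which droplets were deposited was not tested and cannot be told apart across these lists.

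**Figure D3:**
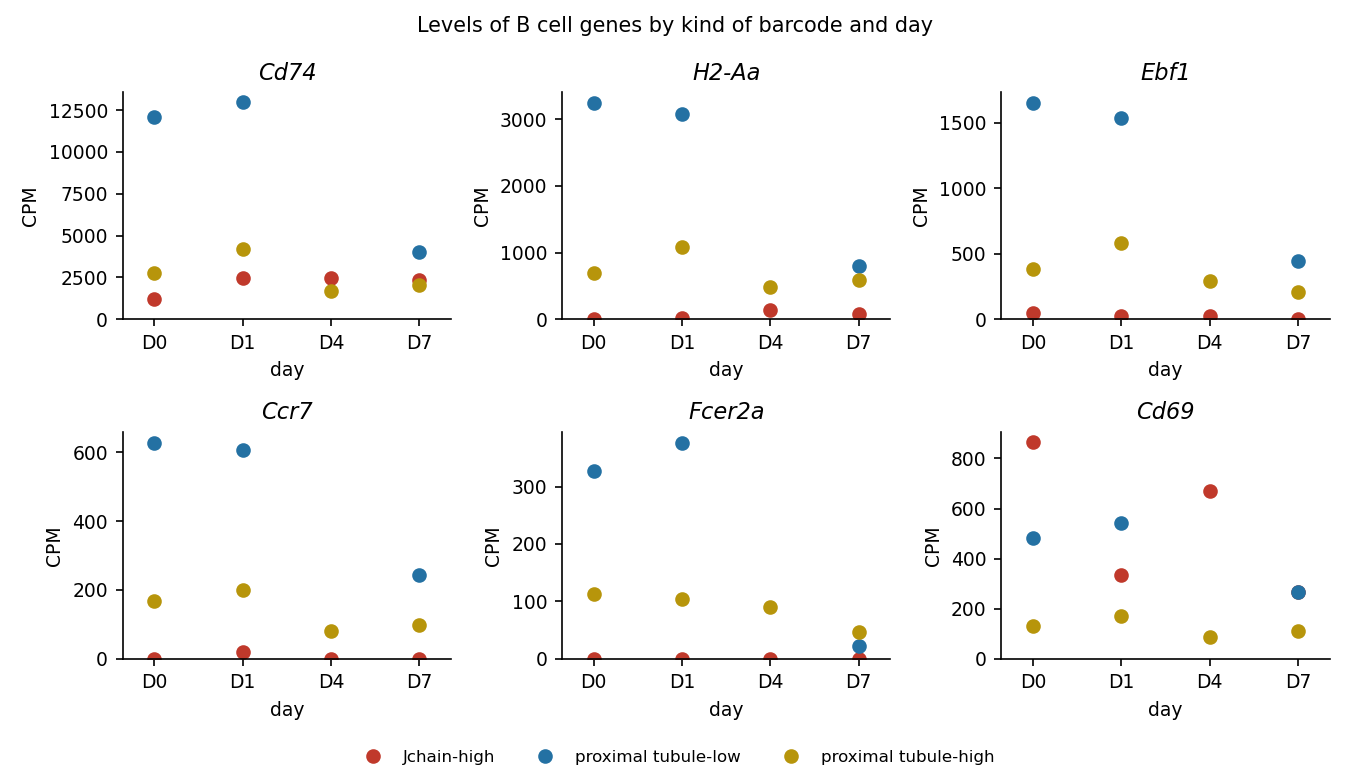
Levels of 6 B cell genes (y axis, CPM of the kind's sum, linear from 0) by day (x axis) in Jchain-high (red), proximal tubule-low (blue) and proximal tubule-high (ochre) barcodes. Each point is 1 sum over the barcodes of a kind, with no error drawn. The proximal tubule-low point of D4, from 2 barcodes, is left out. The blue points of Cd74 at D0 and D1 lie at 12108 and 12998, above all other points of that panel.

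The follicular B cell genes followed the same pattern but kept more of it at the floor. All 6 tested were lower over all barcodes at D4 (median -1.80) and at D7 (median -1.84), and at the floor 1 of 6 was lower on each day, with medians of -0.62 and -0.68. Over all genes 6.33 and 6.28% were lower at D4 and D7, and at the floor 64 of 4791 and 101 of 4340. Fcmr, the receptor for IgM, was at 399, 487, 99.5 and 97.4 CPM at D0, D1, D4 and D7. At the floor Fcmr had 38 UMIs at D7 and 90 at D0 and remained lower, at 0.436 times (0.290 to 0.644). Fcer2a (CD23, the low-affinity IgE receptor of follicular B cells) was at 196, 218, 82.6 and 37.5 CPM. Its D7 level was 0.191 times D0 (0.104 to 0.326) over all barcodes and 0.484 times (0.244 to 0.920) at the floor, where it was not called. Within proximal tubule-high barcodes Fcer2a was lower at D7, at 0.412 times (0.208 to 0.769), from 14 UMIs against 42. Ltb (lymphotoxin beta, which maintains lymphoid tissue) depended on the floor, since its ratio at D7 was 0.306 (0.231 to 0.400) over all barcodes and 0.892 with at least 3000 UMIs. Per barcode the follicular median at D7 was -0.92 with 1 of 6 lower.

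Homing genes were lower in 10 of 15 tested at D4, with 1 higher, and in 10 of 14 at D7, with medians of -1.13 and -1.14 that came to -0.11 and -0.38 at the floor. The shares over all genes were 6.33% lower and 2.18% higher at D4 and 6.28% lower at D7. Klf2, which keeps lymphocytes recirculating, was at 2390, 2749, 725 and 799 CPM at D0, D1, D4 and D7. Its D7 level was 0.334 times D0 (0.296 to 0.377) over all barcodes and 0.717 times (0.620 to 0.829) at the floor. Within proximal tubule-high barcodes Klf2 was lower at D7, with 157 UMIs against 404 and a ratio of 0.480 (0.397 to 0.579), and at D4, at 0.493 times (0.420 to 0.578). Ccr7, the receptor that guides B cells into lymphoid tissue, was at 349, 367, 75.1 and 99.9 CPM, and its ratio at D7 was 0.286 over all barcodes but 0.712 (0.464 to 1.08) at the floor. Cd44, a hyaluronan receptor, was the homing gene that was higher, with 26 UMIs at D1 against 5 at D0, a ratio of 3.66 (1.38 to 12.2). At D4 it had 21 UMIs and stood 5.18-fold above D0 (1.90 to 17.6). At the floor it had 21 UMIs against 3. Of these UMIs 12 of 26 at D1 and 16 of 21 at D4 lay in the Jchain-high barcodes described below, which held 0 of the 5 at D0, so that the other barcodes held 5 at D4 and 5 at D0.

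Among antigen receptor signalling genes, 12 of 19 tested were lower at D4 and 11 of 19 at D7 (medians -1.47 and -1.12), which at the floor became 1 of 11 and 1 of 10 (medians -0.50 and -0.43). The shares lower over all genes were 6.33 and 6.28%, and at the floor 64 of 4791 and 101 of 4340 genes were lower. Siglecg, an inhibitory receptor of B cells that is no member of a list and was named by its low ratio, was at 183, 202, 56.3 and 22.5 CPM at D0, D1, D4 and D7. Its D7 level was 0.123 times D0 (0.0549 to 0.241), and it was still lower at the floor, with 8 UMIs against 41 (0.202, 0.0816 to 0.436), and in proximal tubule-high barcodes, with 8 UMIs against 37 (0.267, 0.107 to 0.583). It was also lower at D7 than at D4, at 0.399 times. Ptpn6 (SHP-1, a phosphatase that dampens receptor signals) was at 0.199 times D0 at D7 over all barcodes and at 0.549 times at the floor, where it was not called.

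B lineage transcription factors were lower in 9 of 17 at D4, and in 9 of 17 with 1 higher at D7 (medians -1.01 and -1.14). At the floor 0 of 13 were lower and 1 was higher on each day (medians -0.23 and -0.34). Among all genes 6.33 and 6.28% were lower and 2.18 and 2.89% higher at D4 and D7. For all genes at the floor, 64 of 4791 were lower at D4 and 101 of 4340 at D7. Of the 132 and 212 genes called there, 51.5 and 52.4% were higher. Ebf1 stood at 0.229 times D0 at D7 (0.179 to 0.289) over all barcodes and at 0.562 times (0.423 to 0.743) at the floor, with 80 UMIs against 147. In proximal tubule-high barcodes Ebf1 stood at 0.534 times D0 at D7 (0.389 to 0.727). The factor that was higher was Id3, which inhibits E proteins, at 57.9, 64.4, 97.6 and 200 CPM, 3.45-fold higher at D7 (2.32 to 5.22) and 7.51-fold (3.98 to 15.7) at the floor. Id3 was at 51.5, 73.0, 122 and 181 CPM in the rest of the library, so its course in B cell barcodes ran beside that of the other cells. The part of carried RNA in it was not tested.

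Of the 489 genes called at D7 against D0, the common floor kept some. Of the 335 lower genes, 201 could be tested at the floor and 43 were lower there too, among 101 genes lower at the floor. Of the 154 higher genes, 146 could be tested and 74 were higher there too. At D4, 35 of the 229 lower genes that could be tested were lower at the floor, and 43 of the 123 higher ones were higher. In the comparison of D7 with D4, 73 of 75 higher and 66 of 71 lower genes kept their call. The floor kept 93 of 94 barcodes at D4 and 59 of 62 at D7, so nearly the same barcodes were compared and little could change. At D0 it kept 56 of 206 barcodes. Slfn2, which keeps lymphocytes quiescent, was among the lowest at D7, at 0.119 times D0 (0.0423 to 0.269) and 0.310 times at the floor. Scd1, the desaturase that makes oleate, was at 0.134 times D0 and at 0.199 times at the floor, and at 0.289 times its D4 level. Dok3, an adaptor that dampens receptor signals in B cells, was at 0.0781 times D0, and Inpp5d (SHIP-1, an inhibitory lipid phosphatase) had 0 UMIs at D7 against 28 at D0. At the floor Dok3 had 2 UMIs at D7 against 14 at D0 and Inpp5d 0 against 8, too few to be tested.

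Interferon-stimulated genes, which answer type I and II interferon, were lower in 4 of 8 tested at D4 and 5 of 8 at D7 (medians -1.05 and -1.32), with medians of -0.16 and -0.10 at the floor. Beside this list and those that follow, 6.33 and 6.28% of all genes were lower and 2.18 and 2.89% higher at D4 and D7. Ifi27l2a had 60 UMIs at D7 against 265 at D0, a ratio of 0.371 (0.276 to 0.493), and Ly6e 159 against 734, a ratio of 0.355 (0.297 to 0.422). At the floor these ratios were 0.661 and 0.765, and neither gene was called. MHC class I genes were lower in 7 of 11 at D4 and 2 of 11 at D7 (medians -1.03 and -0.57), with medians of -0.20 and 0.09 at the floor and a D7 median of 0.39 when counted per barcode, so the direction at D7 depended on the scale. H2-D1 stood at 0.475 times D0 at D7 (0.396 to 0.568) over all barcodes and was one of the genes called, but at the floor it stood at 0.841 times (0.675 to 1.05). Of the marginal zone and B1 cell genes 0 of 5 were called at D4, while at D7 1 of 5 was lower (Cr2, the complement receptor CD21, 5 UMIs against 23) and 1 higher (Cd9, a tetraspanin, 31 UMIs against 16, 13 of the 31 in 1 barcode). At the floor 0 of 3 were called on each day, with 5 UMIs of Cr2 at D7 against 6 at D0 and 31 of Cd9 against 15. Germinal centre and memory genes had 0 of 3 called in each comparison over all barcodes, and at the floor 0 of 2 at D4 and 0 of 3 at D7 against D0.

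**Figure D4:**
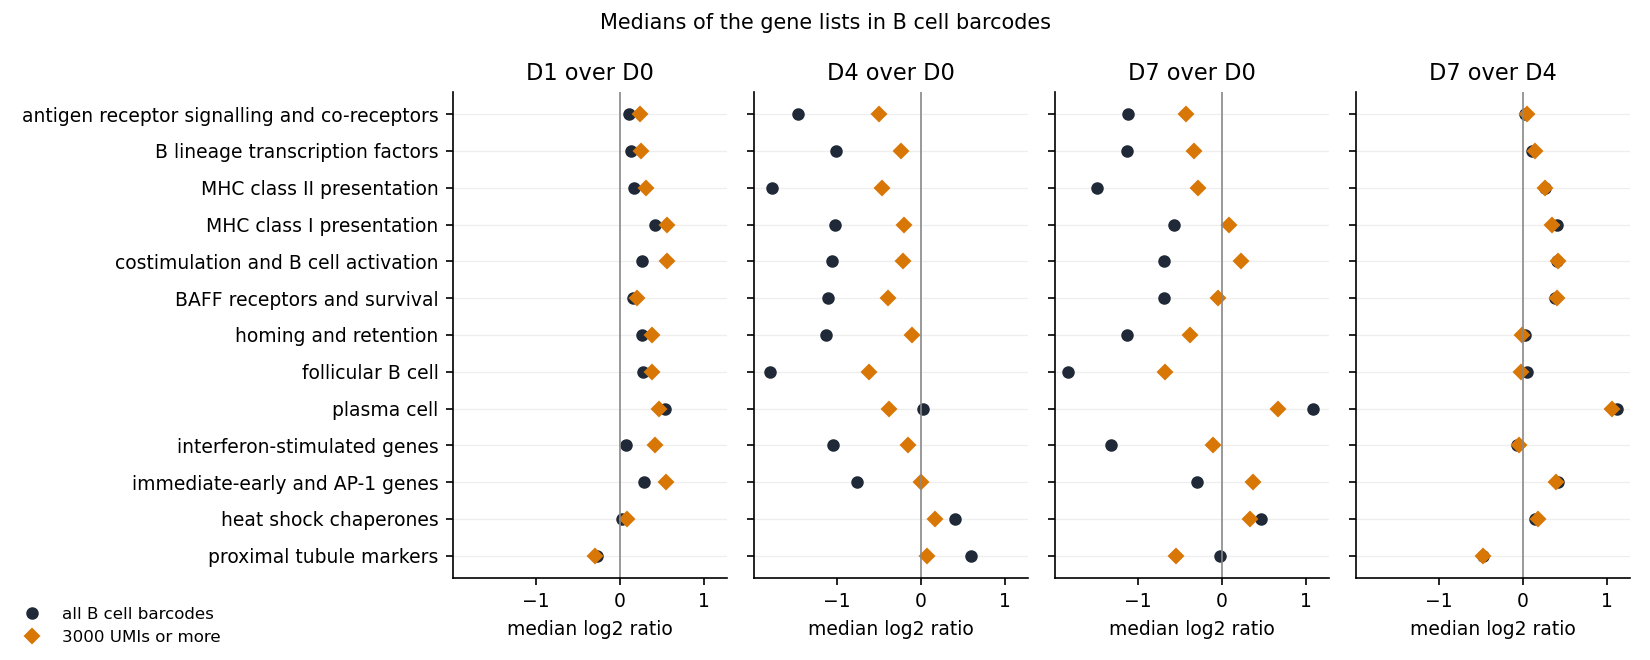
Median log2 ratio of CPM plus 10 over the tested genes of each list (x axis) in the 4 comparisons (panels), for all B cell barcodes (dark circles) and those with at least 3000 UMIs (orange diamonds). In D4 over D0 and D7 over D0 the circles of the MHC class II list lie at -1.78 and -1.49 and the diamonds at -0.46 and -0.29, while in D7 over D4 both symbols lie close together. In D7 over D4 both symbols rest on nearly the same barcodes, since the floor kept 93 of 94 at D4 and 59 of 62 at D7.

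At D1 and D0 both cell lists began at 500 UMIs, and the B cell lists moved little between them. Of the MHC class II genes 0 of 12 were called, and the median was 0.17 beside 0.06 for all genes. MHC class I genes, which show peptides of the cell's own proteins to T cells, lay above 0 in 12 of 12 with a median of 0.41, and none was called. H2-D1, a class I heavy chain, was at 1146 CPM at D1 and 830 CPM at D0, a ratio of 1.38 (1.24 to 1.53). B2m, its light chain, stood at 1.30 times (1.15 to 1.46) and Psmb8, a subunit of the immunoproteasome, at 1.55 times (1.25 to 1.93). The median of the list was 0.18 in proximal tubule-low and 0.55 in proximal tubule-high barcodes, and 0.62 in the rest of the library. It was 0.31 in T cell barcodes, so values above 0 were found in every group of barcodes compared. Interferon-stimulated genes had 0 of 10 called at D1 with a median of 0.07. Cd22, an inhibitory receptor, had 94 UMIs at D1 and 33 at D0, a ratio of 2.01 (1.34 to 3.08) that stayed within 2-fold once 10 CPM were added. Cxcr4, which holds B cells in tissue, stood at 1.56 times and Spib, a factor of receptor signalling, at 1.84 times, neither of them called.

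Of 12 tested heat shock genes 1 was lower and 1 higher at D1, with a median of 0.03 beside 0.06 for all genes. Over all genes 0.475% were lower and 1.25% higher at D1. Hspa1a, the inducible HSP70 chaperone, was lower, with 15 UMIs at D1 against 56 at D0 and a ratio of 0.189 (0.0991 to 0.338). Of the 56 UMIs at D0, 50 lay in 9 proximal tubule-high barcodes, 19 of them in 1 barcode, and 6 in proximal tubule-low barcodes. The lower Hspa1a level at D1 thus rests on few droplets of D0, most of them with proximal tubule RNA. At the floor Hspa1a had 14 UMIs against 55 (0.185, 0.0948 to 0.336), while in the rest of the library it was at 68.7 and 71.9 CPM at D1 and D0. Hspb1 was higher at D1, but 38 of its 43 UMIs lay in 1 barcode. At D7, 3 of 11 heat shock genes were higher than at D0: Hspa1a (2.40-fold, 1.69 to 3.43), Dnajb1, an HSP70 partner (4.10-fold, 2.33 to 7.52), and Hspa5 (2.13-fold, 1.77 to 2.58). Over all genes 2.89% were higher at D7. Of the 260 Hspa5 UMIs at D7, 57 lay in 1 barcode. Without the barcode with most Hspa5 UMIs in each library, its log2 ratio was 0.90, not past 2-fold. At the floor Dnajb1 was the gene still called, at 4.65-fold (2.31 to 10.4), while Hspa1a stood at 1.54 and Hspa5 at 1.72 times. Hspa1a was at 85.3, 16.1, 182 and 205 CPM in B cell barcodes and at 71.9, 68.7, 170 and 230 CPM in the rest of the library at D0, D1, D4 and D7, so that the days other than D1 lay close to the rest.

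Immediate-early genes, which respond to signals and also to tissue digestion, had 1 of 15 tested higher at D1, beside 1.25% of all genes. The higher gene was Atf3, a stress factor, with 82 UMIs against 21 (2.75-fold, 1.69 to 4.68), and 21 of the 82 lay in 1 barcode. At D4, 6 of 15 were lower than at D0, among them Fos (610 CPM at D4 and 1292 CPM at D0, a ratio of 0.472 with an interval of 0.414 to 0.537), and the list median of -0.77 was 0.00 at the floor, where 0 of 13 were called and Fos stood at 0.824 times (0.701 to 0.968). Fos was at 497 CPM at D4 and 221 CPM at D0 in the rest of the library, so the direction differed there. At D7, Atf3 was higher and Btg1, an antiproliferative gene, was lower. At the floor Atf3 was still higher, with 33 UMIs against 4, and Btg1 stood at 0.862 times and was not called. The costimulation list had 6 of 11 lower at D4 and 1 of 10 at D7 (medians -1.06 and -0.70), and medians of -0.21 and 0.23 at the floor. Cd83, which stabilizes MHC class II on activated B cells, was the gene lower at D7, at 0.447 times D0 (0.281 to 0.690), and stood at 0.797 times at the floor (0.464 to 1.36). Cd69, the early activation marker, was at 296, 341, 131 and 150 CPM at D0, D1, D4 and D7 and was called lower at D4 at 0.445 times (0.333 to 0.587), but not at the floor, where it stood at 0.855 times (0.592 to 1.24). Receptors and survival genes of the BAFF pathway were lower in 6 of 10 at D4 and 3 of 11 at D7, with 1 higher each time, and had medians of -0.39 and -0.05 at the floor. Among all genes 6.33 and 6.28% were lower and 2.18 and 2.89% higher at D4 and D7. The lower BAFF pathway genes at D7 were Tnfrsf13c (the BAFF receptor, 0.361 times D0), Birc3 (0.252 times) and Il21r (0.339 times). At the floor Tnfrsf13c stood at 0.839 times and was not called, while Birc3, with 5 UMIs against 13, and Il21r, with 6 against 6, were too rare to be tested. Tnfrsf17 (BCMA), the survival receptor of antibody-secreting cells, was the higher one.

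Genes of antibody-secreting cells were higher at D7 than at D0. Of these, 5 of 8 tested plasma cell genes were higher with a median of 1.08, and at the floor 2 of 8 were, with a median of 0.66. At D1, 2 of 9 were higher (Jchain and Tnfrsf17, median 0.54) and at D4 1 of 7 (Tnfrsf17, median 0.03). Jchain was at 1438, 3579, 1378 and 6223 CPM at D0, D1, D4 and D7. This gene was 4.33-fold higher at D7 (4.01 to 4.67), or 2.42-fold (2.25 to 2.62) at the floor, and 2.49-fold higher at D1 (2.31 to 2.68). The unfolded protein and secretion genes followed at D7: Xbp1, the master factor of secretory capacity, was 2.21-fold higher (1.70 to 2.88), Creld2 2.64-fold (1.66 to 4.28) and Fkbp11, a folding enzyme, 2.65-fold (1.27 to 5.76). Of the 139 Xbp1 UMIs at D7, 48 lay in 1 barcode. Without the barcode with most Xbp1 UMIs in each library, its log2 ratio was 0.78, not past 2-fold. Tnfrsf17 was 4.33-fold higher (2.29 to 8.68), with 37 UMIs against 14. Of these 4 genes Tnfrsf17 was still called at the floor, at 2.58-fold (1.36 to 5.196), while Xbp1 stood at 1.52, Creld2 at 1.77 and Fkbp11 at 1.29 times. Mzb1, a chaperone for antibody assembly, stood at 1.95 times (1.63 to 2.32), which was not called. Creld2 and Hspa5, whose promoters are printed above with the stress element, were at 125 and 649 CPM at D7 against 47.2 and 305 CPM at D0, and in the rest of the library at 37.0 and 473 CPM at D7 against 26.0 and 363 CPM at D0.

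Much of this signal lay in a few barcodes. Of the Creld2 UMIs, 38 of 50 at D7 and 19 of 31 at D0 were in Jchain-high barcodes. Of the Jchain UMIs 2491 of 2492 and 944 of 944 were, but Jchain defines this kind, so these counts are a description only. Jchain-high barcodes numbered 3, 8, 8 and 10 at D0, D1, D4 and D7, which is 1.46, 3.20, 8.51 and 16.1% of B cell barcodes but 0.0207, 0.070, 0.0497 and 0.0692% of passing barcodes. The exact intervals of these last shares, 0.00427 to 0.0605%, 0.0302 to 0.138%, 0.0215 to 0.0979% and 0.0332 to 0.127%, overlapped each other. At the floor there were 3, 6, 8 and 9 of them. No barcode lay near the limit of 20 Jchain UMIs: the lowest in the Jchain-high kind was 49, and the highest in any other B cell barcode was 3. Without them, 0 of 4 tested plasma cell genes were called at D7 (median -0.11) and the log2 ratio of Xbp1 was -0.08. The higher antibody-secreting signal in the sums at D7 thus went with a larger share of such barcodes among B cell barcodes, while their share of passing barcodes was 0.0692% at D7 against 0.0207% at D0.

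Within these 29 barcodes the single values were as follows. Jchain was at 398, 335 and 211 UMIs in the 3 barcodes of D0. At D1 the 8 barcodes held 914, 455, 427, 387, 332, 309, 262 and 248 UMIs. At D4 they held 142, 130, 122, 113, 65, 55, 53 and 49. At D7 the 10 barcodes held 656, 292, 279, 277, 247, 202, 154, 135, 129 and 120. Every D4 value lay below every value of D0 and D1, and D4 overlapped D7, where 3 of the D4 barcodes lay above the lowest of D7. Relative to the RNA of these barcodes, Jchain made up 45498, 69936, 18814 and 44640 CPM. Mzb1 averaged 39.3, 32.9, 14.3 and 22.7 UMIs per barcode and Xbp1 16.0, 20.6, 4.25 and 11.1, also lowest at D4. Barcodes of 1 library are not replicates, and how many animals they came from is not known, so no test was made.

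**Figure D5:**
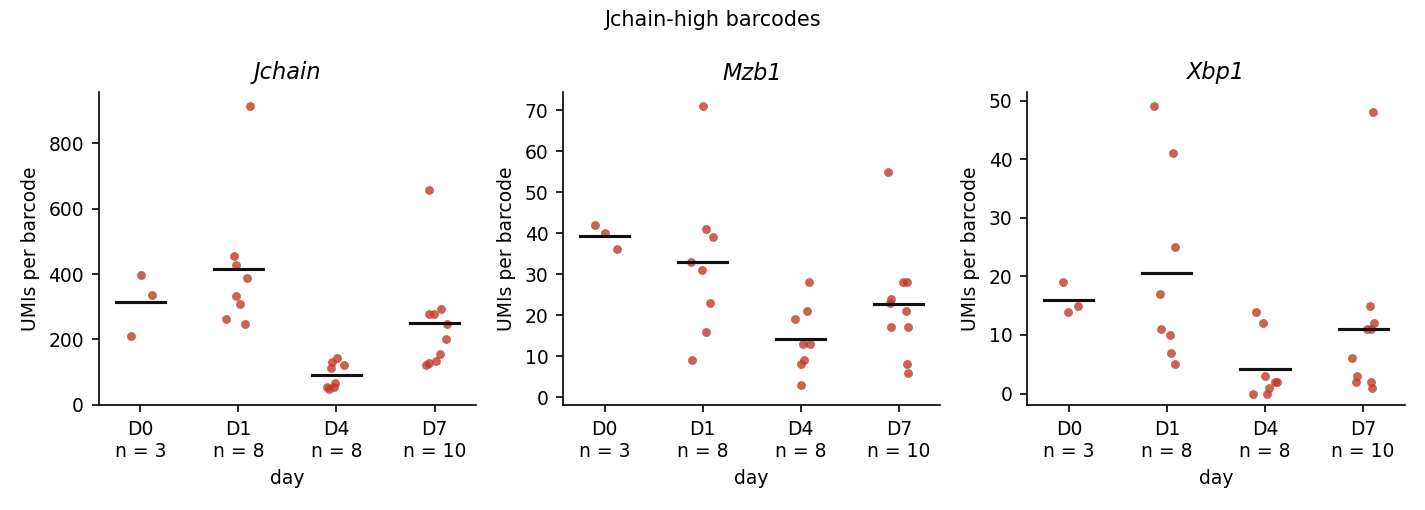
UMIs of Jchain, Mzb1 and Xbp1 (y axes, linear) in each Jchain-high barcode (points) by day (x axis, with the number of barcodes), with the mean as a black line. The Jchain means are 315, 417, 91.1 and 249 from left to right, and the 8 points of D4 lie between 49 and 142.

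The Jchain-high barcodes lacked some genes of resting B cells and held others. Ms4a1, Fcer2a and Fcmr had 0 UMIs in all 29 barcodes, and the UMIs of Ebf1 numbered 1, 1, 1 and 0 by day. Cd74 was still present in each of them, at 4 to 33 UMIs. Ly6d had 14 UMIs in 2 of the 3 barcodes of D0 and 29 in 6 of the 8 of D1. H2-Ab1, an MHC class II gene, had 8 UMIs in 3 and 13 UMIs in 5 of these barcodes, while H2-Aa had 0 and 1. Tnfrsf17 had 14, 50, 36 and 37 UMIs in these barcodes and 0 in the other B cell barcodes. Ly6c2, a surface protein of antibody-secreting cells among other leukocytes, averaged 10, 14.1, 6 and 15.4 UMIs, and over all B cell barcodes it was among the genes with the highest ratios at D7, 7.19-fold higher than at D0 (4.98 to 10.6) and 4.53-fold (3.05 to 6.93) at the floor. Pycard, the inflammasome adaptor, had 27, 159, 126 and 93 UMIs here. It was 3.18-fold higher at D4 than at D0 over all B cell barcodes and 3.102-fold at the floor, and without the Jchain-high barcodes its log2 ratio was -0.91. Crip1, a small LIM protein, averaged 15.7, 44.1, 43.8 and 12.2 UMIs, and over all B cell barcodes it was lower at D7 than at D4, at 0.473 times (0.390 to 0.570). The limits behind the choice of barcodes also shape this kind: 2, 4 and 3 further passing barcodes of D1, D4 and D7 held at least 20 Jchain UMIs but fell outside the limits, and they are not counted here. Of these 9, 2 held under 2 UMIs of the 3 genes, 3 held none of Cd79a and Ms4a1, 3 held a UMI of the Cd3 genes and 2 held more than 1 UMI of the C1q genes, 1 barcode falling under both of a pair of limits.

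Genes of other kidney cells were also higher in B cell barcodes. Spp1 (osteopontin, a phosphoprotein that coats crystals) had 25, 802, 471 and 970 UMIs in B cell barcodes at D0, D1, D4 and D7. Spp1 at D7 was 63.6-fold above D0 (42.8 to 98.8) and stood at 2422 CPM, beside 2508 CPM in the rest of the library. At D1 592 of the 802 UMIs lay in 1 barcode. Of the tubule injury genes, 3 of 8 tested were higher at D1, 3 of 5 at D4 and 8 of 8 at D7, with a median of 2.44 at D7. Among all genes 1.25, 2.18 and 2.89% were higher at D1, D4 and D7, and their D7 median was 0.02. At the floor 7 of 8 injury genes were higher at D7 (median 2.26) and Spp1 stood at 55.15-fold. Of all 4340 genes tested at the floor 212 were called at D7, 52.4% of them higher. In T cell barcodes 9 of 10 injury genes were higher at D7 (median 2.33) and in the rest of the library 9 of 12 (median 1.45). The shares over all genes in these other barcodes are not given here. Havcr1 (KIM-1, a receptor of injured tubule cells) had 24 UMIs at D7 against 0 at D0, at least 13.1-fold higher against a floor of 3 counts in the D0 library, but 20 of the 24 lay in 1 barcode. Umod, the secreted protein of the thick ascending limb, had 204 UMIs at D7 and 19 at D0, and 143 of them lay in 1 barcode. Whether these transcripts were carried by free RNA or by a second cell in the droplet was not tested.

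Single barcodes also set many values at D1. Of the 84 genes higher at D1, 39 had at least 50% of their UMIs in 1 barcode, and 57 stayed higher without that barcode. Among genes at 2 or more times their level in the rest of the library, the highest ratios belonged to Dcn (decorin, a matrix protein of fibroblasts), with 195 UMIs at D1 against 0 at D0 in 2 barcodes, at least 45.8-fold higher against the same floor of 3 counts, and to Igfbp6, Pi16 and Mfap5, which are also known from fibroblasts. Lcn2, an iron-binding injury marker, had 85 of its 88 UMIs in 1 barcode and Cryab, a small heat shock protein, 93 of 102. Among the lowest at D1, Krt15, a keratin, had its 29 UMIs of D0 in 1 barcode. At D4 and D7 single barcodes mattered less: 118 of 124 and 129 of 154 higher genes and 353 of 360 and 329 of 335 lower genes kept their call without the barcode that held most of their UMIs.

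Among genes at 2 or more times their level in the rest, the highest ratios at D7 also included Mki67 and Cenpf, genes of dividing cells. Mki67 had 42 UMIs at D7 against 0 at D0, and 36 of them lay in 1 barcode. Of 7 tested cell cycle genes 4 were higher at D7, and the others named are Stmn1 (68 UMIs against 26), Tyms (19 against 6) and Top2a (19 against 4), of which 24, 9 and 9 UMIs lay in 1 barcode. Among all genes 2.89% were higher at D7. The list median was 1.59, and 0.99 without each gene's top barcode. At the floor 6 of 6 tested cell cycle genes were higher, with a median of 1.82 beside 0.02 for all genes. Of all 4340 genes tested there 212 were called, 52.4% of them higher. Stmn1 was at 170 CPM in B cell barcodes and 169 CPM in the rest of the library at D7. The rest held 57.5 CPM of Stmn1 at D0. It held 25.7 CPM of Mki67 at D7 against 1.12 CPM at D0. Top2a stood there at 24.9 against 1.30 CPM and Tyms at 30.2 against 25.3 CPM. At D4 the highest ratios by the same limit were those of Anxa2, a membrane-binding protein (13.8-fold, 6.00 to 38.8), Wipi1, an autophagy protein (3.70-fold), and Fam46c, an RNA-modifying enzyme of antibody-secreting cells (2.59-fold), beside Cd44, Pycard and Tnfrsf17. Fam46c was not called. Of the D4 UMIs, 60 of 67 of Anxa2 and 19 of 21 of Fam46c lay in Jchain-high barcodes, and 1 of 15 of Wipi1. At the floor Anxa2 was called, with 67 UMIs against 1, while Wipi1 stood at 2.29 and Fam46c at 1.60 times and were not. The lowest by the same limit included Sox4, a factor of early B cells, with 1 UMI at D4 against 36 at D0, Fam43a (0.0880 times), Slamf6, a receptor of lymphocytes (0.114 times), Ly86 (MD-1, which pairs with a B cell Toll-like receptor, 0.135 times) and Serpinb1a, a protease inhibitor (0.150 times). At the floor Slamf6 (0.208 times), Ly86 (0.255 times) and Serpinb1a (0.369 times) were still lower at D4, and Sox4, with 1 UMI against 13, and Fam43a, with 4 against 13, were too rare to be tested. Immature B cell genes were lower in 4 of 4 at D4, where 6.33% of all genes were, and in 2 of 4 at D7, where 6.28% were, with medians of -1.94 and -0.94. At the floor 1 of 3 (Cd24a, the heat stable antigen) was lower at D4 and 0 of 4 at D7, with medians of -0.97 and -0.02. Ly6d, a marker of B cell precursors and of follicular cells alike, was at 1507, 1358, 327 and 422 CPM at D0, D1, D4 and D7, and at the floor D4 and D7 stood at 0.504 and 0.657 times D0.

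At D7 and D4 the cell lists begin at a similar depth, and the calls in the B cell lists differed by list. Over all genes 1.64% were higher and 1.49% lower at D7 than at D4. The medians were 0.26 for MHC class II, 0.05 for follicular genes, 0.02 for receptor signalling and 0.11 for transcription factors, beside 0.05 for all genes, and none of the 10, 6, 11 and 14 tested genes was called. MHC class II genes lay above 0 in 8 of 10. Other lists lay higher: the median was 0.40 for MHC class I genes, with 8 of 10 above 0, 0.41 for costimulation genes, with 8 of 8 above 0, and 0.38 for BAFF pathway genes, with 7 of 7 above 0, and none of these was called. Of the marginal zone and B1 cell genes 2 of 3 were higher (median 1.34), namely Cd9, 4.58-fold with 13 of its 31 UMIs in 1 barcode, and Mzb1, which is also a plasma cell gene (2.59-fold). Of the immature B cell genes 1 of 3 was higher (Cd24a, 2.46-fold, list median 0.52). Plasma cell genes were higher in 5 of 8 (median 1.12), led by Jchain, 4.52-fold higher at D7 than at D4 (4.16 to 4.91), and Fkbp11 (5.59-fold, 2.05 to 19.0). Without the Jchain-high barcodes the Jchain log2 ratio was -0.64, from the few UMIs left, since Jchain defines that kind. Slpi, a secreted protease inhibitor, was 7.65-fold higher at D7, with 41 of its 46 UMIs in 1 barcode, and Lgals3 (galectin 3) 8.65-fold, with 47 of 78. The carried RNA was lower at D7 than at D4, with a median of -0.48 over the 17 proximal tubule markers, of which 3 were lower.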

How the data were processed

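Droplet single-cell RNA sequencing gave UMI counts per gene and barcode for 1 library per day. These raw counts were deposited by the authors without any scaling. The submitters' processing notes name Cell Ranger 3.1.0 and mm10, while per the file headers the software was 3.0.1. How cells were called, and with which annotation, is not given in the sources used here. Each matrix held 27998 genes.

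The barcodes, gene lists and rules were chosen with earlier results of these data known, and the 3 kinds of barcode after these values were seen. UMIs were summed per library and scaled to CPM. Ratios have exact intervals for 2 Poisson counts, and shares have Clopper-Pearson intervals. A fold against 0 UMIs is a bound from 3 counts. Depth ranged from 541 to 22653 UMIs per B cell barcode and from 400428 to 931962 per library. The rule for naming genes took the 6 highest and 6 lowest ratios per comparison among genes at 2 or more times the level of the rest, and up to 4 members per list at D7. Members beyond it, such as single list genes given for their role, were chosen after their values were seen. With 1 library per day no p-value was computed, and no doublet caller was used except as an alternative. Python 3.11.15, numpy 2.4.6, scipy 1.17.1 and scanpy 1.11.5 were used, and edgeR 4.0.16 only for TMM scaling factors. The calls were tested on simulated data. Promoters come from RefSeq, GRCm38.p6. Some single results are not reported here.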

Additional observations from a re-analysis of the deposited data

How the results depend on the processing

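Called genes numbered 116, 484, 489 and 149 at D1, D4 and D7 against D0 and at D7 against D4, and their number depended on the processing. With at least 3000 UMIs it was 209, 132 and 212 against D0. With the highest Scrublet scores removed it was 177, 1291, 1159 and 185. Scaled per barcode it was 1719, 2341 and 264 at D4, D7 and D7 against D4. That scale put the median of all genes at 0.25, 0.70, 0.90 and 0.22 in log2 (0.06, 0.01, 0.02 and 0.05 with CPM), and made 89.9, 95.8, 97.8 and 76.1% of calls higher, against 72.4, 25.6, 31.5 and 52.4% with CPM. At the 3000 UMI floor 51.5% at D4 and 52.4% at D7 were higher. With the profile of the rest subtracted it was 1234, 2558, 2307 and 2578. A minimum of 1 UMI gave 183, 756 and 385 (D1, D7 and D7 against D4), a pseudocount of 1 CPM 390, 871, 800 and 332, and one of 50 CPM 24, 108, 124 and 26. Barcodes with no Slc34a1 or Lrp2 UMI gave 96 at D7 against D4, leaving out each gene's top barcode 77 at D1, equal weight of barcodes 201, 1446 and 1184, and proximal tubule-high barcodes 112 at D4 and 184 at D7. The cause of these differences was not tested.

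The share of B cell barcodes at the floor was 0.568% at D0 and 0.845% at D1. The carried level of Slc34a1 was then 74.4 and 80.0% and that of Lrp2 90.0 and 73.8% at D0 and D1. With the highest Scrublet scores removed, which took out 46, 47, 22 and 10 B cell barcodes, Slc34a1 was at 24.95, 31.0, 78.1 and 49.8%, Lrp2 at 30.6, 26.5 and 48.4% (D0, D1 and D7), and the marker median at 26.8 and 25.8% (D0 and D1).

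Of 807 values of named genes under these alternatives 516 moved little, 278 moved and 13 changed sign. Without Slc34a1 or Lrp2 UMIs the log2 ratios at D7 against D4 were -1.10 for Umod, -2.09 for Nupr1 and -2.09 for Aspm, from 6 barcodes a day. Without its top barcode Nupr1 was at -0.25. Without Jchain-high barcodes Pycard was at -0.91 (D4 against D0), Xbp1 at -0.081 (D7 against D0) and Jchain at -0.64 (D7 against D4). In proximal tubule-high barcodes Pycard was at -0.22 (D4 against D0), Ly6c2 at -0.21 and Xbp1 at -0.22 (D7 against D0), and Nupr1 at -0.27, Lgals3 at -0.52 and Jchain at -0.086 (D7 against D4). Both of these settings leave out the barcodes that Jchain defines, so the sign changes of Jchain itself are no finding. Proximal tubule-low barcodes, 2 at D4 and 9 at D7, were too few for counts of calls on those days. No paired analysis was possible because each day has 1 library and no test, and for the same reason no replicate could be left out. Depth limits the rarer genes: a gene with 0 UMIs at D7 may reach 3 of 400428.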
